A study of Mus musculus with 48 samples.

Results

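Progesterone was compared with vehicle in primary mouse astrocytes, 4 arrays against 4, taken from the 48 arrays of the series by the treatment and cell type in their labels. All 46174 probes entered the comparison. The series holds 12 groups of 4 arrays, striatal astrocytes and striatal neurons of C57Bl/6J mice, each culture given 1 of 6 treatments for 4 h before RNA was taken. Both cell types had been kept in unsupplemented medium before the treatment. Progesterone, aldosterone, 5α-dihydrotestosterone and β-estradiol were given at 200 nM, dexamethasone at 100 nM, and the vehicle was dilute ethanol. The astrocytes came from mice in the first postnatal week and were selected on beads by the surface antigen GLAST, the glutamate transporter Slc1a3. They then grew in serum, so they are glia of young mice in culture and not astrocytes of the adult striatum. The neurons came from embryos late in gestation and grew in another medium, so cell type goes together with age and culture. The labels number the arrays of each group from 1 to 4, and the number was a block in the fit. The chip identifiers of the labels and those of the non-normalized table do not go together: matched by their values, 1 of 48 arrays lay nearest to its own identifier. By that match, which goes against the labelled identifiers, a number was 1 chip and each treatment sat at 1 fixed position on it, in which case chip position and treatment cannot be told apart. Nothing in the labels says whether the arrays of a group were separate animals or separate wells, beyond calling them independent biological replicates, so the p-values cover the spread between these arrays.

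Progesterone is the steroid of the corpus luteum and placenta, and glia and neurons can also make it from cholesterol. It acts through the nuclear progesterone receptor, a transcription factor that binds DNA as a dimer at the response element it shares with the glucocorticoid, mineralocorticoid and androgen receptors. It also binds the mineralocorticoid receptor and, at high concentration, the glucocorticoid receptor, and membrane proteins of the Paqr and Pgrmc families carry faster responses. Astrocytes are known for a large transcriptional response to glucocorticoids.

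The windows around the transcription starts of the genes that rose, called below, were searched for 3 motifs on both strands. These were the full steroid response element (AGAACA and TGTTCT with 3 bases between them), its half-site TGTTCT and the E-box CACGTG, the binding sequence of clock and other basic helix-loop-helix factors. The half-site is contained in the full element. RefSeq windows of 300 bases (250 before the start and 50 after it, build GRCm38.p6) were found for 21 of the 25 genes. The full element was in none of them, and in 0.0111% of all 27025 genes with windows. The half-site was in 4 of the 21 genes and in 21.3% of all genes, and the E-box in 5 of the 21 and in 8.09% of all genes. A match describes the letters of these windows only. The windows of 4 of the 5 E-box genes and 1 window of Tsc22d3 are printed 5′ to 3′ on the strand of the gene, with the E-box or half-site in capitals. They show the E-box in 4 genes well above background (Lpin3, the other, is close to it) and the half-site in the gene with the largest rise. They lie at chr11:69098699-69098998 on the plus strand (Per1), chr17:28486100-28486399 on the minus strand (Fkbp5), chr4:149774218-149774517 on the minus strand (Slc25a33), chr7:112225586-112225885 on the plus strand (Mical2) and chrX:140600473-140600772 on the minus strand (Tsc22d3).
Per1: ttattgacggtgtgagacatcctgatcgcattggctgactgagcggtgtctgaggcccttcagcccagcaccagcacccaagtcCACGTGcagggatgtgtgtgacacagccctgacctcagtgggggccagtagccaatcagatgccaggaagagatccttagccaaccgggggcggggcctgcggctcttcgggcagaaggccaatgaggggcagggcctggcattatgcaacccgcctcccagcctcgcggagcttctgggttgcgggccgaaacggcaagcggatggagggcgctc
Fkbp5: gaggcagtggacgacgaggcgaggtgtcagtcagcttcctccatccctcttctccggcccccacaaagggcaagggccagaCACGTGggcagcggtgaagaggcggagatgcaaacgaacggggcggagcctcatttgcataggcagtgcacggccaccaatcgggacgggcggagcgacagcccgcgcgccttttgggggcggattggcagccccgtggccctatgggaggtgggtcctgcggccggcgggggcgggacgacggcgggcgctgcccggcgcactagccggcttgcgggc
Slc25a33: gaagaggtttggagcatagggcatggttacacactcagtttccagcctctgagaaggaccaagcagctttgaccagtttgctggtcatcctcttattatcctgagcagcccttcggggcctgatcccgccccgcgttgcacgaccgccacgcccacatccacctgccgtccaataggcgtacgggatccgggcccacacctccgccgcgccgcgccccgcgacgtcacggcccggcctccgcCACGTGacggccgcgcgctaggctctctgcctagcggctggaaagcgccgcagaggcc
Mical2: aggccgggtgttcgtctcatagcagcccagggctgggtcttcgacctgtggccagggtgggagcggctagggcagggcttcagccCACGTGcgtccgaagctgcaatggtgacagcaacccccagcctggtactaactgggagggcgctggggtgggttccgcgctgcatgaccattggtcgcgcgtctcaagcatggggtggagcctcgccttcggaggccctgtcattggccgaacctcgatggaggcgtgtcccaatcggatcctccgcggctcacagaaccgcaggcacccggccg
Tsc22d3: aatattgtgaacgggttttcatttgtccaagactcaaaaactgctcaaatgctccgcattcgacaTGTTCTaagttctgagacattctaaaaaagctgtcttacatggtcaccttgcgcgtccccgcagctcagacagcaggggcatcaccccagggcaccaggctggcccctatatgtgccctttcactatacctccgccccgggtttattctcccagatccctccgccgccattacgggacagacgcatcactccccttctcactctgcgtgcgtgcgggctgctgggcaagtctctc
In Per1, Fkbp5 and Mical2 the E-box began 166, 169 and 165 bases before the start, and in Slc25a33 it began 8 bases before it. Per1 has a second RefSeq start and Tsc22d3 has others, whose windows held none of the motifs.

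A small set of genes was higher with progesterone than with vehicle. At a false discovery rate (FDR) of 0.01, 25 of 20250 genes were higher with progesterone (0.123%) and 0 were lower (limma, Benjamini-Hochberg over all probes). The rises ran from 0.47 to 1.005 on the log2 scale, median 0.605, which is 1.39-fold to 2.01-fold. They were led by Tsc22d3, Per1 and Mapk4, followed by Pdk4, Bcat1 and Mical2. The 25 genes were called on these same arrays with the number as a block, so their agreement across pairs is a description only. Its share over all genes was not taken. In all 25 genes the progesterone array was above the vehicle array of the same number in each of the 4 pairs. In 24 of them every progesterone array was above every vehicle array, a separation that 443 of all genes showed (2.19%), while 182 showed the reverse (0.899%). Counted as probes, 31 were higher (0.0671%) and 1 was lower (0.00217%). An unadjusted p under 0.05 (limma) was found for 4391 probes, where 2308.7 would be expected with no change. The same progesterone arrays gave 2765 such probes against aldosterone, 2253 against dihydrotestosterone and 1945 against estradiol. The part of the vehicle arrays in the larger count against vehicle was not tested.

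**Figure D1:**
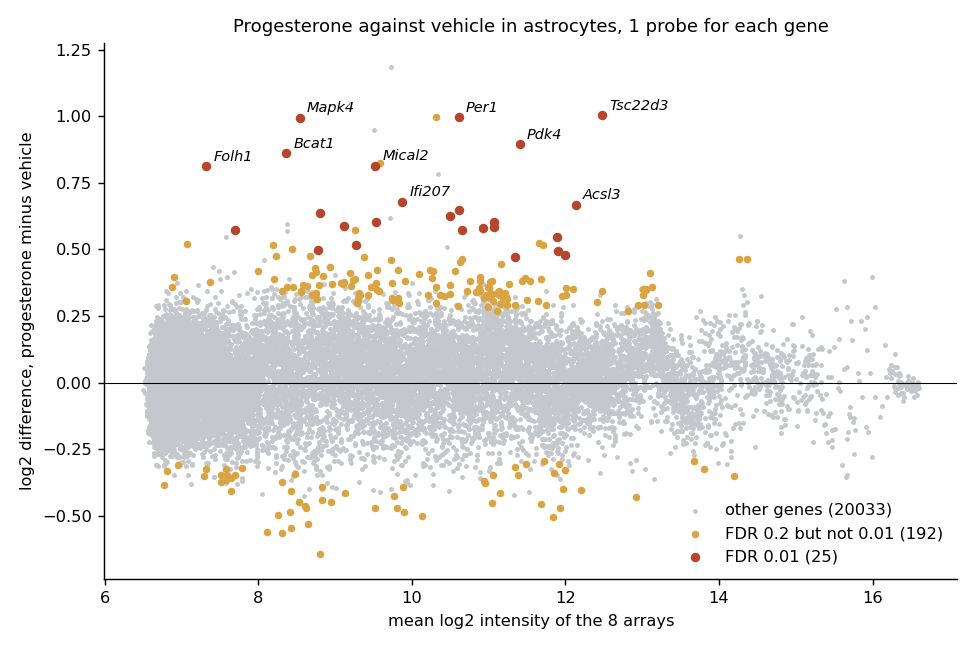
Log2 difference between progesterone and vehicle astrocytes (vertical axis) against the mean log2 intensity of the 8 arrays (horizontal axis), 1 point for each of 20250 genes. The 25 genes past FDR 0.01 (red) all lie above 0, and the 192 genes past FDR 0.2 but not 0.01 (yellow) lie on both sides.

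The number of calls depended on how the arrays were paired. Without the number as a block 13 probes and 11 of the 25 genes were called, and the methods' t-test called 0 probes after adjustment. The fit of all 48 arrays called 46 probes higher and 10 lower. It takes in the neuron arrays labelled vehicle 3 and dexamethasone 3, which stood apart from their groups (below). Their part in its calls was not tested. Repeated quantile normalization called 29 higher and 5 lower. Leaving out progesterone array 3 gave 20 higher and 4 lower, and leaving out vehicle array 3 gave 22 and 4. In all, leaving out vehicle array 4 gave 18 probes and leaving out progesterone array 2 gave 21. Of the 25 genes, 8 were called in every limma setting and in every fit with 1 array left out: Tsc22d3, Per1, Mapk4, Bcat1, Mical2, Folh1, Acsl3 and Zfp469. With Pdk4, Fkbp5, Mertk, Ifi207 and Cryba4, 13 were called whichever of the 8 arrays was left out. Another 3 genes lost the call without 1 or 2 of the arrays. Slc25a33 missed it without vehicle array 4 (adjusted p = 0.0117), Slc46a3 without vehicle array 2 (adjusted p = 0.0129) and Kcnk6 without progesterone array 3 or vehicle array 4 (highest adjusted p = 0.0164). The remaining 9 (Klf7, Klf9, Zhx3, Chst15, Nek11, Fzd7, Mbd1, Sult1a1 and Lpin3) kept it in at most 3 of the 8 fits with an array left out, with highest adjusted p between 0.0178 (Klf7) and 0.0747 (Lpin3).

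Tsc22d3, which encodes the leucine zipper protein GILZ that restrains inflammatory transcription, had the largest rise of the called genes. Its brightest probe, for a gene on chromosome X, read 12.87, 12.75, 13.03 and 13.28 (log2 intensity) in progesterone arrays 1 to 4, against 12.02, 11.77, 12.09 and 12.03 in the vehicle arrays. The progesterone arrays were all above the vehicle arrays by more than the range within either group. The difference was 1.005 ± 0.11 (log2 units, with its standard error, adjusted p = 1.25e-06). A second probe of Tsc22d3 rose by 0.725 ± 0.117 (adjusted p = 0.00136). A half-site lay in 1 of its promoter windows, printed above, and the half-site was in 21.3% of all genes with windows.

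Per1, the clock repressor on chromosome 11, rose in step with it. It read 10.81, 11.25, 11.29 and 11.08 with progesterone, against 10.18, 10.28, 10.05 and 9.93 with vehicle. Progesterone array 1 was the lowest of its group and still lay above the highest vehicle array. The difference was 1.00 ± 0.0989 (adjusted p = 1.93e-07), and a second probe gave 0.88 ± 0.0931 (adjusted p = 7.82e-07). The remaining probe of Per1, near background at a mean of 6.72, gave 0.03 ± 0.095.

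Fkbp5, a co-chaperone that holds steroid receptors in a state of low affinity, moved less. It read 9.27, 9.35, 9.01 and 8.86 with progesterone, against 8.41, 8.70, 8.17 and 8.66 with vehicle. Progesterone array 4 lay only slightly above vehicle arrays 2 and 4, so the groups were separate but close. The difference was 0.64 ± 0.095 (adjusted p = 0.000423). It was not called without the block, in the fit of the 8 arrays alone or in that of all 48 arrays (highest adjusted p = 0.0183).

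Other regulators of transcription were among the rises. Klf9, a zinc finger factor, read 12.15, 12.21, 12.13 and 12.18 with progesterone, against 11.79, 11.64, 11.42 and 11.63 with vehicle, and the progesterone arrays were nearly alike. The difference was 0.55 ± 0.095 (adjusted p = 0.00339), while a dimmer probe of Klf9 gave 0.23 ± 0.116 (adjusted p = 0.555). Klf9 was not called with the 8 arrays alone (adjusted p = 0.0177) or with all 48 (adjusted p = 0.0834). Klf7, a factor of the same family known for axon growth, averaged 12.15 ± 0.0892 (SD, n = 4) with progesterone and 11.66 ± 0.17 with vehicle, a difference of 0.49 ± 0.0817 (adjusted p = 0.00193). Its other probes, at 0.18 and 0.32, were not called. Mbd1, which binds methylated DNA, rose by 0.48 ± 0.0862 (adjusted p = 0.00539), and its 5 other probes, none called, gave 0.01 to 0.53 (lowest adjusted p = 0.0166). The zinc finger genes Zhx3 and Zfp469 rose by 0.605 ± 0.103 (adjusted p = 0.00281) and 0.59 ± 0.0847 (adjusted p = 0.000223).

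Mapk4, an atypical MAP kinase on chromosome 18, had the smallest adjusted p. It read 9.20, 9.01, 8.95 and 8.98 with progesterone, against 8.12, 8.06, 8.02 and 7.96 with vehicle. Both groups were tight, and the gap between them was several times the range of either. The difference was 0.995 ± 0.0854 (adjusted p = 1.36e-08). Mertk, the receptor tyrosine kinase by which astrocytes and microglia engulf synapses and debris, read 11.28, 11.43, 11.36 and 11.44 with progesterone, against 10.78, 10.81, 10.67 and 10.84 with vehicle. Its difference of 0.60 ± 0.079 (adjusted p = 4.45e-05) was likewise wider than either group, but it was not called in the fit of all 48 arrays (adjusted p = 0.139). Nek11, a kinase of the NIMA family, rose by 0.515 ± 0.0869 (adjusted p = 0.0025), and Fzd7, a Wnt receptor, by 0.47 ± 0.0861 (adjusted p = 0.00706).

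**Figure D2:**
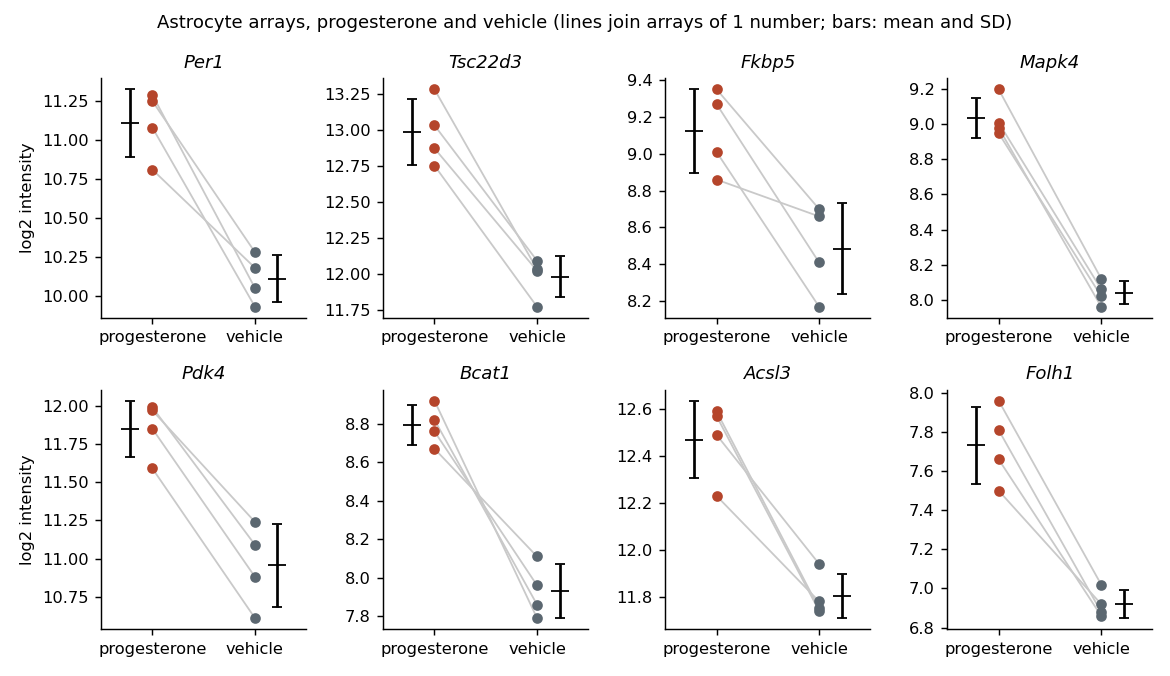
Log2 intensity (vertical axes, which do not start at 0) of 8 genes in the progesterone (left) and vehicle (right) astrocyte arrays. Lines join arrays of 1 number, and bars give mean and SD (n = 4). In each panel all 4 progesterone arrays lie above all 4 vehicle arrays, with the closest approach in Fkbp5 (8.86 against 8.70).

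Genes of metabolism, lipid handling among them, are given next. Pdk4, the kinase that shuts off pyruvate dehydrogenase, read 11.99, 11.97, 11.85 and 11.59 with progesterone, against 11.09, 11.24, 10.88 and 10.61 with vehicle. Number 4 was the lowest array in both groups, and the groups did not overlap. The difference was 0.895 ± 0.0871 (adjusted p = 1.83e-07), although in the fit of all 48 arrays Pdk4 was not called (adjusted p = 0.209). Bcat1, the cytosolic transaminase of branched-chain amino acids, read 8.76, 8.82, 8.67 and 8.92 with progesterone, against 7.96, 7.86, 8.11 and 7.79 with vehicle. No progesterone array came near the vehicle arrays, and the difference was 0.86 ± 0.104 (adjusted p = 1.05e-05). Slc25a33, a mitochondrial carrier of pyrimidine nucleotides, read 11.44, 11.36, 11.24 and 11.41 with progesterone, against 10.95, 10.85, 10.70 and 10.61 with vehicle. The difference was 0.585 ± 0.0901 (adjusted p = 0.000687).

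Acsl3, which activates long-chain fatty acids at the endoplasmic reticulum and lipid droplets, read 12.49, 12.23, 12.57 and 12.59 with progesterone, against 11.94, 11.78, 11.74 and 11.75 with vehicle. Progesterone array 2 was the lowest of its group and still lay above every vehicle array. The difference was 0.67 ± 0.0889 (adjusted p = 5.59e-05). Lpin3, a phosphatidate phosphatase, averaged 7.99 ± 0.246 with progesterone and 7.41 ± 0.12 with vehicle, close to background in both (0.575 ± 0.104, adjusted p = 0.00609). Sult1a1, a sulfotransferase of phenols and some steroids, read 10.52, 11.02, 11.04 and 11.18 with progesterone, against 10.46, 10.43, 10.09 and 10.19 with vehicle. Progesterone array 1 was nearly level with vehicle arrays 1 and 2. The difference was 0.65 ± 0.114 (adjusted p = 0.00413). It was not called with a random block (adjusted p = 0.0107), with the 8 arrays alone (adjusted p = 0.04) or with all 48 (adjusted p = 0.344).

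The other called genes included enzymes, transporters and a channel. Folh1, the peptidase that frees glutamate from N-acetylaspartylglutamate, read 7.66, 7.96, 7.5 and 7.81 with progesterone, against 6.86, 7.02, 6.92 and 6.88 with vehicle. The vehicle arrays were at background level and the progesterone arrays close to it. The difference in signal of 0.81 ± 0.103 (adjusted p = 2.56e-05) may therefore be smaller than the change in mRNA. A second probe of Folh1, at background with a mean of 6.90, gave 0.09 ± 0.106 (adjusted p = 0.836). Mical2, an enzyme that oxidizes and takes apart actin filaments, read 10.05, 9.82, 9.87 and 9.98 with progesterone, against 9.30, 9.17, 9.05 and 8.94 with vehicle. The groups did not approach each other, and the difference was 0.815 ± 0.1 (adjusted p = 1.45e-05). Ifi207, a member of the interferon-inducible p200 family, read 10.51, 10.11, 10.20 and 10.04 with progesterone, against 9.81, 9.46, 9.44 and 9.43 with vehicle. Number 1 was the highest array in both groups, and the difference was 0.68 ± 0.0977 (adjusted p = 0.000223). Cryba4, a crystallin, rose by 0.625 ± 0.0944 (adjusted p = 0.000511), Slc46a3, a lysosomal transporter, by 0.58 ± 0.09 (adjusted p = 0.000687), and Chst15, a sulfotransferase of chondroitin sulfate, by 0.497 ± 0.0852 (adjusted p = 0.00297). Kcnk6, a background potassium channel, rose by 0.57 ± 0.0926 (adjusted p = 0.00136) and was the only called gene whose arrays overlapped, progesterone array 4 (10.63) lying below vehicle array 2 (10.70).

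Some probes were called although a brighter probe of the same gene represented it. Igfbp3, a carrier of insulin-like growth factors, had a probe that read 11.09, 11.38, 10.97 and 11.26 with progesterone, against 10.49, 10.47, 10.46 and 10.57 with vehicle (0.68 ± 0.107, adjusted p = 0.000993). Its brightest probe gave 0.11 ± 0.117 (adjusted p = 0.817), so the probes of Igfbp3 disagree. Likewise a probe of Kdsr, an enzyme of sphingolipid synthesis, gave 0.46 ± 0.0808 where the brightest gave -0.06 ± 0.0871. For Tprkb, a subunit of a tRNA-modifying complex, the values were 0.51 ± 0.0948 and 0.41 ± 0.095. The 1 probe that fell belongs to Hook1, an adaptor between endosomes and microtubules, and changed by -0.555 ± 0.0917 (adjusted p = 0.00189) at a level near background (6.45 to 6.62 with progesterone, 6.88 to 7.19 with vehicle), while a slightly brighter probe of Hook1 gave 0.02 ± 0.101. The Hook1 probe that fell was also lower than vehicle with aldosterone (-0.37), dihydrotestosterone (-0.45), estradiol (-0.40) and dexamethasone (-0.255). The Kdsr probe that rose gained 0.34, 0.285, 0.23 and 0.41 in the same order. All these changes were measured from the same vehicle arrays. Dimmer probes of Mertk and Chst15 gave 0.01 and -0.01, unlike the brighter probes described above. One more called probe has no gene symbol here.

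At the looser FDR of 0.2, 159 genes were higher (0.785%) and 58 lower (0.286%). The excess of rises at this threshold was not stable. Counted as probes, 248 were higher and 130 lower, against 225 higher and 251 lower with quantile normalization repeated. The counts were 298 and 297 without progesterone array 3, and 350 and 309 without vehicle array 3. The falls nearest to the stricter threshold were Dock9, an activator of the GTPase Cdc42 (-0.645 ± 0.122, adjusted p = 0.0115), and Ttc28 (-0.47 ± 0.0919, adjusted p = 0.0163). Next came Gpt, alanine aminotransferase (-0.45 ± 0.0886, adjusted p = 0.0186). For Dock9 the arrays overlapped (8.48 ± 0.364 with progesterone, 9.13 ± 0.326 with vehicle), whereas for Ttc28 and Gpt every progesterone array was below every vehicle array. The nearest rises were Slc10a6, a carrier of sulfated steroids (0.52 ± 0.103, adjusted p = 0.0186), and Tlr13, a sensor of bacterial RNA (0.445 ± 0.0896, adjusted p = 0.021). These genes were named after their values were seen.

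Gene lists were read against the background of 0.123% of genes called higher and a median change of 0.015 over all genes (log2). Of 38 glucocorticoid receptor targets, 10 rose, 0 fell, and the median was 0.17. The 10 were Tsc22d3, Per1, Mapk4, Pdk4, Bcat1, Sult1a1, Fkbp5, Mertk, Slc25a33 and Klf9. That list was drawn up with dexamethasone results of these arrays known, so its count is not independent evidence. Fam107a, an actin regulator of the list, gave 0.515 ± 0.108 (adjusted p = 0.0323), and Sgk1, a kinase used by aldosterone and cortisol, gave 0.245 ± 0.108 (adjusted p = 0.47). Dusp1, a phosphatase of MAP kinases, was lower at FDR 0.2 only (-0.315 ± 0.0803, adjusted p = 0.12). Of 27 measured genes that the progesterone receptor controls in uterus and breast, 0 were called and the median was -0.03. Only 15 of these 27 averaged 7.5 or more (log2 intensity), whereas all 38 glucocorticoid receptor targets did. Changes in the dimmer genes are hard to see, and with 0.123% of all genes called, 27 genes can easily hold none. The count of 0 therefore does not decide whether the progesterone receptor list responded. Within that list Foxo1, a factor of endometrial decidualization, gave 0.45 ± 0.0992 (adjusted p = 0.0448) and Bmp2, a growth factor of the same process, -0.385 ± 0.0964 at background level (adjusted p = 0.108).

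**Figure D3:**
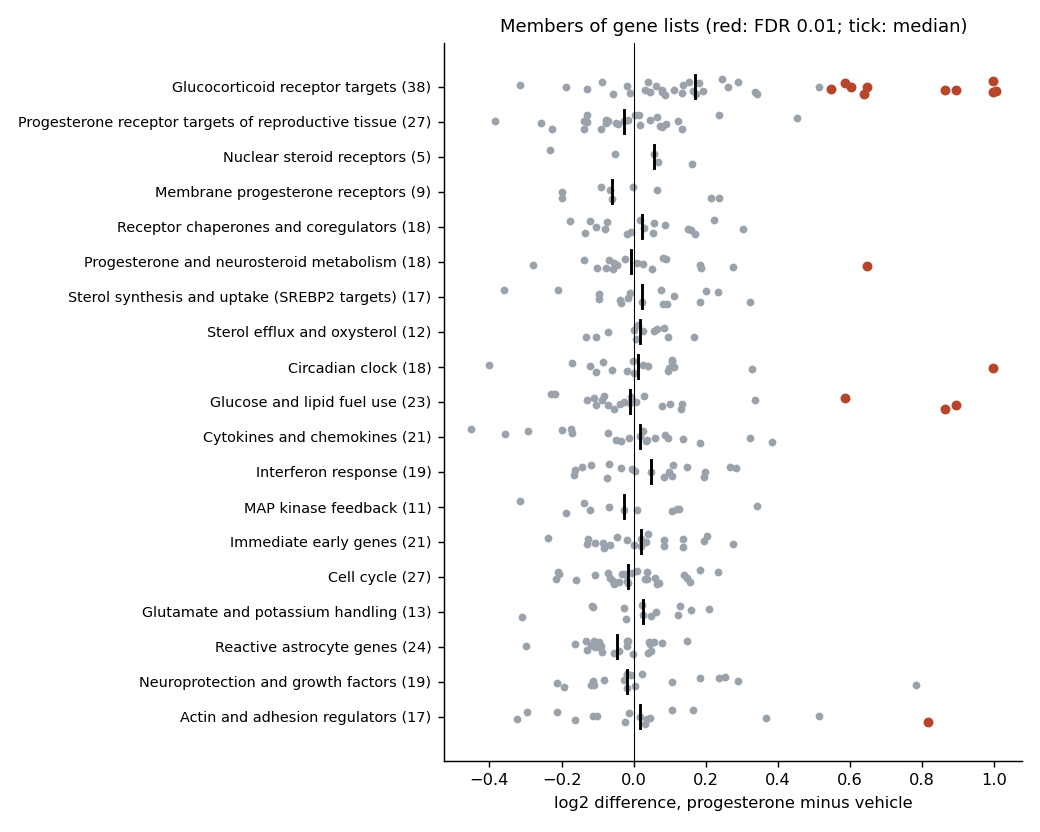
Log2 difference between progesterone and vehicle astrocytes (horizontal axis) of every measured member of 19 gene lists (rows, number measured in brackets). Red points are past FDR 0.01 and black ticks are medians. Glucocorticoid receptor targets hold 10 red points and a median of 0.17, and the progesterone receptor targets of reproductive tissue hold no red points. Of the latter, 15 of 27 averaged 7.5 or more (log2 intensity), against 38 of 38 glucocorticoid receptor targets. The lists were drawn up with earlier results of these data known.

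Other pathways held few called members. Their lists too were drawn up with earlier results of these data known, so these counts are not independent evidence either. Of 18 clock genes 1 rose, Per1, and Per2, its partner repressor, gave 0.33 ± 0.0888 (adjusted p = 0.153). Among 23 genes of glucose and lipid fuel use, 3 rose: Pdk4, Bcat1 and Slc25a33. Of the 3, Bcat1 works on amino acids and Slc25a33 carries nucleotides, so the list is wider than its name. Among 17 regulators of actin and adhesion 1 rose, Mical2, and among 18 genes of progesterone and neurosteroid metabolism 1 rose, Sult1a1. None of 21 cytokines and chemokines was called. Of these, Il1b gave -0.36 ± 0.0985 (adjusted p = 0.161), Csf1 -0.45 ± 0.109 (adjusted p = 0.0913) and Ccl9 0.38 ± 0.109 (adjusted p = 0.188). No member was called among 17 measured genes of sterol synthesis and uptake, 19 interferon-response genes, 21 immediate early genes, 27 cell cycle genes, 24 reactive astrocyte genes or 19 neuroprotection and growth factors. Their medians lay between -0.0475 and 0.0475.

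The receptors themselves gave little signal. The probes of Pgr, the progesterone receptor, averaged 6.98 ± 0.119 with progesterone and 6.92 ± 0.249 with vehicle, which is background level. Those of Nr3c1, the glucocorticoid receptor, averaged 6.95 ± 0.114 with progesterone and 7.19 ± 0.113 with vehicle, and Nr3c2, the mineralocorticoid receptor, 6.76 ± 0.163 and 6.81 ± 0.0419. All 5 nuclear steroid receptors measured were under 7.5, so these probes say little about receptor mRNA. Among the membrane proteins, Paqr7 averaged 12.52 ± 0.152 with progesterone and 12.45 ± 0.104 with vehicle, and Pgrmc1 10.40 ± 0.406 and 10.60 ± 0.222. None of the 9 members measured was called.

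Cell type markers were read to check the label of the cultures. Astrocyte markers were bright, with Gfap at 16.37 ± 0.0704 and 16.38 ± 0.064 and Slc1a3 at 16.44 ± 0.053 and 16.46 ± 0.018 in progesterone and vehicle arrays, and none of the 10 was called. All 10 microglial markers were above 7.5 too. Their summed level (log2 of the summed intensity) ran from 16.28 to 16.46 with progesterone and from 16.17 to 16.27 with vehicle, so the groups did not overlap. Of the 10, C1qb and C1qa lay above the vehicle arrays in every progesterone array, and C1qb gave 0.465 ± 0.101 (adjusted p = 0.0405). Cx3cr1 averaged 13.42 with progesterone and 13.65 with vehicle, and Aif1 13.31 and 13.33. The same sum was 16.38 to 16.52 with aldosterone, 16.29 to 16.43 with dihydrotestosterone, 16.23 to 16.41 with estradiol and 16.24 to 16.30 with dexamethasone. Ependymal markers summed to 13.54 to 13.83 with progesterone and 13.33 to 13.73 with vehicle, oligodendrocyte lineage markers to at most 15.21 and 15.08, and endothelial markers, 5 of 6 under 7.5, to 10.57 to 10.76 and 10.34 to 10.62, all overlapping. Fibroblast and mural markers, 3 of 7 under 7.5, summed to 16.23 to 16.39 with progesterone and 16.26 to 16.42 with vehicle. These sums were near the microglial ones, and none of the 7 was called. The part of the microglial level in the rise of Mertk, which microglia also express, was not tested. More cells of a type and more RNA per cell cannot be told apart in these bulk samples. Neuronal markers summed to 13.58 to 13.91 with progesterone and 13.68 to 13.87 with vehicle, and 5 of the 9 were under 7.5.

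Progesterone was then set against the 3 other steroids given at the same dose and time. These comparisons share the 4 progesterone arrays, and the changes of each steroid from vehicle share the 4 vehicle arrays. Aldosterone is a pregnane like progesterone, with added hydroxyl groups and an aldehyde. Dihydrotestosterone lacks the acetyl side chain of progesterone and has a saturated A ring, and estradiol lacks that side chain and has an aromatic A ring.

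Against aldosterone, 60 genes were lower with progesterone (0.296%) and 12 higher (0.0593%). Of the 25 genes raised by progesterone, 16 were lower than with aldosterone, none was higher, and 22 had a lower fitted value. Fkbp5 showed the widest gap, with 9.27, 9.35, 9.01 and 8.86 in the progesterone arrays and 11.17, 11.28, 11.04 and 11.16 in the aldosterone arrays, a difference of -2.04 ± 0.095 (adjusted p = 2.44e-16). For Tsc22d3 the difference was -1.64 ± 0.11 (adjusted p = 2.16e-12), for Pdk4 -1.475 ± 0.0871 (adjusted p = 1.30e-13) and for Per1 -0.91 ± 0.0989 (adjusted p = 3.13e-07). Measured from vehicle, Fkbp5 gained 0.64 with progesterone and 2.68 with aldosterone, while Per1 gained 1.00 and 1.905. Plin4, a lipid droplet coat, and Gjb6, the connexin of astrocyte junctions, were lower with progesterone than with aldosterone by -1.46 ± 0.0985 and -1.39 ± 0.112, and neither was called against vehicle (0.335 and 0.06).

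The 12 genes higher with progesterone than with aldosterone were, for 11 of them, genes lower with aldosterone than with vehicle. Cxcl10, an interferon-induced chemokine, averaged 10.30 ± 0.153 with progesterone, 9.34 ± 0.0759 with aldosterone and 10.59 ± 0.261 with vehicle, a difference of 0.96 ± 0.133 from aldosterone and -0.29 ± 0.133 from vehicle (adjusted p = 0.484). Ptx3, a pattern-recognition protein, averaged 9.76 with progesterone, 9.10 with aldosterone and 9.82 with vehicle. Wnt7a, a Wnt ligand, averaged 10.48, 9.90 and 10.58, and Tnfrsf11b, a decoy receptor, 9.25, 8.61 and 9.34 in the same order. For these genes progesterone arrays stayed near the vehicle arrays.

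Against dihydrotestosterone, 11 genes were higher with progesterone (0.0543%) and 0 lower (2253 probes at an unadjusted p under 0.05). The 11 were Tsc22d3, Per1, Mapk4, Pdk4, Bcat1, Mical2, Folh1, Acsl3, Fkbp5, Zfp469 and Lpin3. Per1 read 10.23, 9.89, 10.15 and 10.06 in the dihydrotestosterone arrays, all below the lowest progesterone array (10.81), a difference of 1.025 ± 0.0989 (adjusted p = 1.95e-07). Against estradiol, 10 genes were higher (0.0494%) and 0 lower (1945 probes at an unadjusted p under 0.05). Of these, 9 were among the 25 raised genes: Tsc22d3, Per1, Mapk4, Pdk4, Mical2, Folh1, Acsl3, Fkbp5 and Zfp469. The other was Fam180a, which averaged 7.79 ± 0.265 with progesterone and 7.40 ± 0.261 with vehicle. Per1 read 10.23, 10.06, 10.07 and 10.12 with estradiol, a difference of 0.99 ± 0.0989 (adjusted p = 7.47e-07). The 25 genes were chosen on the same progesterone arrays, so how many of them appear here is a description.

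Some raised genes were not told apart from the other steroids. Nek11, Ifi207, Slc46a3, Klf7, Zhx3, Chst15, Fzd7, Cryba4 and Kcnk6 were called against none of aldosterone, dihydrotestosterone and estradiol. Nek11 differed by 0.06 from aldosterone (95% interval -0.12 to 0.23), 0.03 from dihydrotestosterone (-0.15 to 0.20) and 0.08 from estradiol (-0.10 to 0.25), so a gap of more than 0.25 lay outside all 3 intervals. From vehicle, Nek11 changed by 0.515 with progesterone, 0.46 with aldosterone, 0.49 with dihydrotestosterone, 0.44 with estradiol and 0.39 with dexamethasone. Ifi207 differed by 0.11 from dihydrotestosterone (-0.09 to 0.31), and its change from vehicle was 0.57 there. Slc46a3 differed by 0.03 from aldosterone (-0.16 to 0.21). Since each change was measured from the same 4 vehicle arrays, such shared values could come from those arrays or from the steroids, which cannot be told apart.

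**Figure D4:**
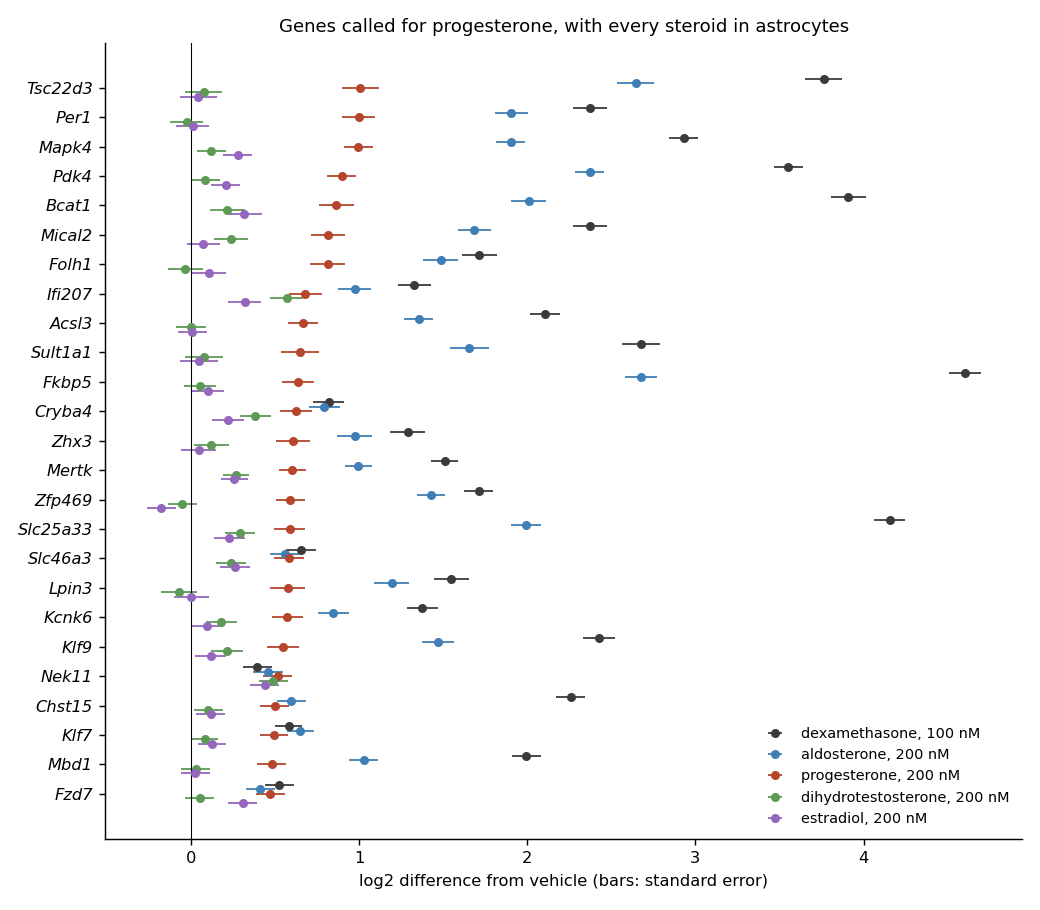
Log2 difference from vehicle in astrocytes (horizontal axis, bars are standard errors, 4 arrays a group) for the 25 genes that rose with progesterone (rows), with each of 5 steroids in colour. Fkbp5 runs from 0.06 with dihydrotestosterone to 4.60 with dexamethasone (100 nM), with progesterone at 0.64, while Nek11 lies between 0.39 and 0.515 with all 5.

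Dexamethasone was given at another dose and was not tested against progesterone. Side by side, the changes from vehicle were 1.005 with progesterone and 3.76 with dexamethasone for Tsc22d3, 0.64 and 4.60 for Fkbp5, and 0.585 and 4.155 for Slc25a33. They were 0.58 and 0.655 for Slc46a3, and 0.47 and 0.525 for Fzd7. Over the 38 glucocorticoid receptor targets the medians were 0.17 with progesterone, 2.02 with dexamethasone and 0.74 with aldosterone. They were 0.05 with dihydrotestosterone and 0.03 with estradiol, beside medians over all genes between -0.005 and 0.015. The list was drawn up with dexamethasone results of these arrays known, so its medians are not independent evidence.

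In neurons given the same dose for the same time, 0 probes were called at FDR 0.01 or 0.2 (limma), and 2186 had an unadjusted p under 0.05. The neuron array labelled vehicle 3 stood apart from its group. Averaged over 38 glucocorticoid receptor targets, the signal was 10.20 there and 9.44 to 9.47 in the other neuron vehicle arrays. In the neuron array labelled dexamethasone 3 it was 9.68, and 10.12 to 10.17 in the other neuron dexamethasone arrays. Whether the labels of these arrays were exchanged was not tested. Pdk4 read 11.88 in the array labelled vehicle 3 and 8.85 to 9.12 in the other neuron vehicle arrays, and Tsc22d3 12.84 and 11.56 to 12.03. Without it the neuron comparison again called 0 probes at either FDR (limma, 1834 at an unadjusted p under 0.05). The fitted neuron change of Pdk4 was then 0.29 in place of -0.54, and that of Sult1a1 0.16 in place of -0.56, none past the test. The difference between cell types was tested as a difference of differences over the 2 cell types. Cell type cannot be told apart there from the age of the mice and the culture medium. The progesterone effect was larger in astrocytes for 12 of the 25 genes (0.0593% of all genes) and smaller for none. Per1 read 10.57, 10.49, 10.56 and 10.38 in the progesterone neurons, against 10.41, 10.55, 11.06 and 10.56 in the vehicle neurons, so the groups overlapped. Its difference between the cell types was 1.14 ± 0.146 (adjusted p = 1.05e-05). Without neuron vehicle array 3, 9 probes were called, and 8 of the 12 genes kept the call, Per1 at 0.993 (adjusted p = 5.58e-05) among them, while Acsl3, Fkbp5, Ifi207 and Klf7 lost it.

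**Figure D5:**
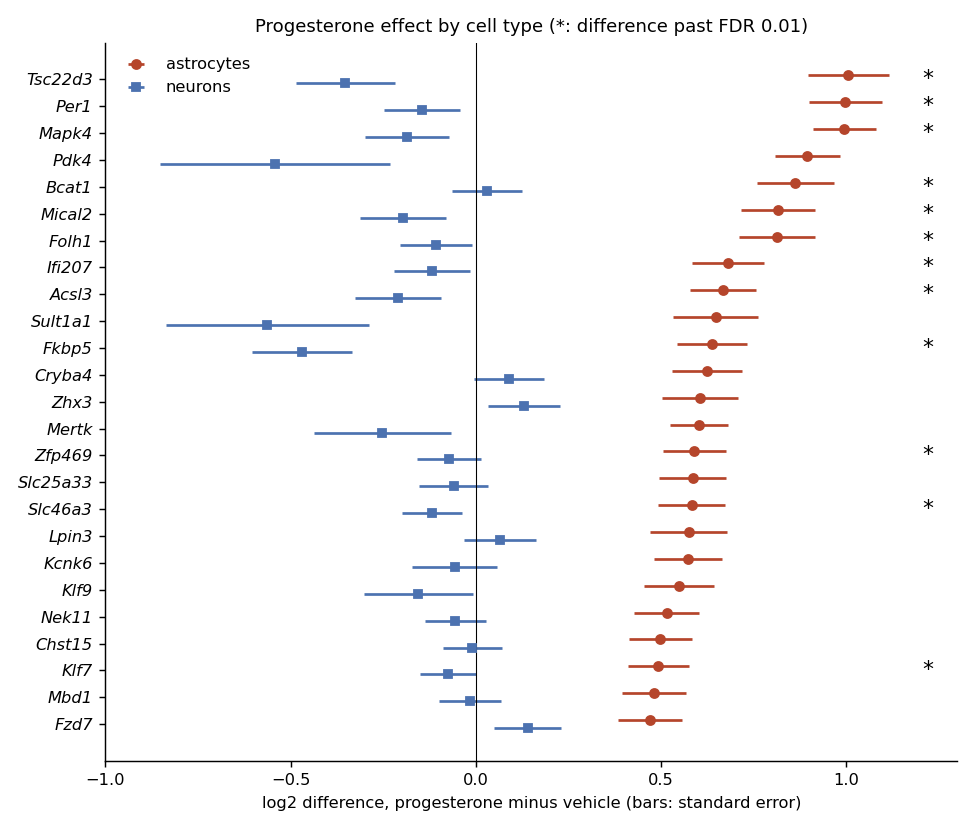
Log2 difference between progesterone and vehicle (horizontal axis, bars are standard errors, 4 arrays a group) in astrocytes (red circles) and neurons (blue squares) for the 25 genes that rose in astrocytes. All astrocyte points lie at 0.47 or above, the neuron points, which include the array labelled vehicle 3, lie between -0.56 and 0.14, and asterisks mark the 12 genes whose difference between the cell types passed FDR 0.01.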

How the data were processed

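RNA was hybridized to Illumina mouse arrays, and the values used are the log2 intensities deposited by the authors after normalization, given to 2 decimals. Background subtraction and quantile normalization are named in the methods, but not which of them made this table. Values ran from 6.02 to 16.65, array medians from 7.1 to 7.16, and 63.0% of probes averaged under 7.5 in astrocytes, where changes are hard to see. The number of arrays limits the precision. A second deposited table was used only to trace chips: only 1 of 48 identifiers there pointed to the array of nearest values, so arrays were matched by value, against the labelled identifiers.

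Probes were named from the platform annotation, updated through RefSeq (GRCm38.p6). Of 46174 probes 35725 had 1 symbol, 10449 had none, and 20250 genes were represented by their brightest astrocyte probe. Groups were compared with limma 3.58.1 (R 4.3.3) on the 24 astrocyte arrays, 6 group means with the replicate number as a block (15 residual and 18.1 prior degrees of freedom), with Benjamini-Hochberg adjustment in each comparison. The difference between cell types used all 48 arrays. Same-numbered astrocyte arrays deviated together in all 60 pairs (r of 0.115 to 0.325, median 0.225). The 180 other pairs ran from -0.29 to 0.27, median -0.147, so the ranges overlap. Deviations within a group sum to 0, so values above 0 in same-numbered pairs push the other pairs below 0. What the number stands for was not tested. On simulated data with 46174 probes, 48% to 52% of changes of 0.5 and 98% to 100% of changes of 1 were recovered. Those data were drawn with normal noise from the block model itself, so recovery where that model fails was not tested.

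Named genes were the called genes with separate arrays, the smallest p of the other comparisons, genes in the study's text and list members. Alternatives were no block, a random block, the 8 arrays alone, all 48 arrays, repeated quantile normalization, a median shift, a minimum mean of 7.5, the methods' t-test and leaving out each array. Members and lists were chosen with earlier results of these data known. Tables were made in Python 3.11.15 with pandas 2.3.3.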

Additional observations from a re-analysis of the deposited data

Results flagged for a closer look

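Among 50 groups of 4 arrays checked for a lone array, 2 were found, where chance would give about 1 in 20. Ifi207 read 9.81 in vehicle array 1 and 9.43 to 9.46 in the other vehicle arrays. Klf7 read 12.02 in progesterone array 3 and 12.18 to 12.21 in the others.

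The effect of progesterone differed between cell types in 12 genes, tested as the change in astrocytes minus that in neurons (log2). The difference was 1.36 for Tsc22d3, 1.18 for Mapk4, 1.14 for Per1, 1.11 for Fkbp5, 1.01 for Mical2 and 0.92 for Folh1. It was 0.877 for Acsl3, 0.833 for Bcat1, 0.797 for Ifi207, 0.7 for Slc46a3, 0.662 for Zfp469 and 0.568 for Klf7. Of the 12, 7 were called whichever of the 16 arrays was left out (Bcat1, Folh1, Mapk4, Mical2, Per1, Slc46a3 and Tsc22d3). Without neuron vehicle array 3 the adjusted p was 0.0663 for Acsl3, 0.0123 for Fkbp5, 0.0279 for Ifi207 and 0.03 for Klf7. Zfp469 was called in 2 of the 16 such fits.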

How the results depend on the processing

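None of the 25 genes changed direction. For progesterone against vehicle 32 probes were called at FDR 0.01 and 378 at FDR 0.2. Without the replicate block the counts were 13 and 41, with the number as a random block 21 and 127, with the 8 arrays alone 21 and 155, with all 48 arrays 56 and 1142, and with the methods' t-test 0 and 0. The filter on dim probes gave 770 at FDR 0.2. Leaving out 1 array gave 18 to 26 and 108 to 659. Against aldosterone (93 probes), the count was 53 without the block, 0 with the methods' t-test and 70 to 78 without 1 array. Against dihydrotestosterone (14), it was 8, 1 and 9 to 12, and against estradiol (14), 9, 0 and 8 to 16. The difference between cell types (13) gave 4 without the block and 8 to 12 without 1 array. Repeated quantile normalization and the median shift kept every total within 1.5 times, but the first split the 476 probes at FDR 0.2 into 225 higher and 251 lower, where the reported fit had 248 and 130, and the 34 at FDR 0.01 into 29 and 5. The neuron count of 0 was unchanged without vehicle array 3, a setting chosen after seeing the data. For the 25 genes, 274 values kept their call and 126 lost it. The causes were not tested. Signal near background limits what can be said of dim genes.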

Other observations

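The widest fitted changes outside the called genes were in genes whose arrays varied widely in both groups (chosen after their values were seen). H19 averaged 10.3 ± 1.09 with progesterone and 9.13 ± 1.58 with vehicle (1.185 ± 0.511, adjusted p = 0.456). Lox averaged 9.98 ± 1.01 with progesterone and 9.03 ± 0.944 with vehicle. Dcn, one of the fibroblast and mural markers, averaged 10.2 ± 0.87 and 9.35 ± 0.952. Cldn11 averaged 10.8 ± 0.633 with progesterone and 9.81 ± 0.729 with vehicle. None passed FDR 0.01.

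Pdgfra, a growth factor receptor of oligodendrocyte precursors and fibroblasts, averaged 10.002 ± 0.329 with progesterone and 9.18 ± 0.232 with vehicle (0.825 ± 0.18, adjusted p = 0.0429), with every progesterone array above every vehicle array.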
